A study of Mus musculus with 8 samples.

Results

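Cartilage that is about to turn into bone mineralizes through a small set of secreted proteins, enzymes and channels, and 8 of their genes are described here in cultured mouse rib chondrocytes: Col10a1, Alpl, Ibsp, Spp1, Phospho1, Panx3, Enpp1 and Mgp. They were taken by gene symbol from a deposited table of 18501 genes, and all 8 passed the filter on low counts that left 14359 genes to test. The libraries come from 2 mouse lines on the CD1 strain that carry different changes in the gene of the cartilage microRNA miR-140, and both changes are described by the submitters as producing more of the 5p arm. CT mutants carry a C>T base change and are set against CT wild types; CG mutants carry a mutation in the seed region of the 3p arm and are set against CG wild types. Each of the 4 groups has 2 libraries, and all mice were 10 days old. In every group the rib cartilage was digested overnight with collagenase II, and the released cells were filtered and plated before RNA was extracted, so the measurements are of plated cells rather than of intact tissue. The labels give neither the time in culture nor the source of the 2 libraries of a group. Ddx3y, used below to mark male libraries, stood at 2 and 2511 counts for CG wild types. Its counts were 3512 and 30 for CT mutants and 3669 and 10 for CT wild types. Within each of these groups the libraries thus differed in sex by that mark and were not repeats of 1 sample. For CG mutants, with 2231 and 2360 counts, the spread may still be technical. The p-values of the main fit rest on the spread within groups, shared over all 4 groups.

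When growth plate chondrocytes stop dividing they enlarge and deposit collagen X, and mineral then forms in and around vesicles that bud from them. Phosphate is released by alkaline phosphatase and by PHOSPHO1, whereas pyrophosphate, which ENPP1 makes from ATP, holds mineral back and is itself destroyed by alkaline phosphatase. Matrix Gla protein keeps cartilage and arteries free of mineral, osteopontin and bone sialoprotein are acidic phosphoproteins that bind mineral, and pannexin 3 forms a channel through which ATP leaves prehypertrophic chondrocytes and osteoblasts.

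The arm of miR-140 whose seed is mutated in the CG line is shown because it is the one whose matches in the 8 genes could be looked for. Its mature sequence (chr8:107551288-107551308, plus strand, GRCm38.p6, from RefSeq) is given with bases 2 to 8, the seed, in capitals, beside the 1 match found among the members, in the 3′ UTR of Enpp1 (chr10:24639571-24639593, minus strand, GRCm38, GENCODE), with the match in capitals.
mmu-miR-140-3p: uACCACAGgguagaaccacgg
Enpp1 3′ UTR site: cctgcctaTGTGGTActcagtcc
The letters searched for on the transcript strand were CTGTGGT and TGTGGTA, which share 6 bases, in the longest annotated 3′ UTR of each gene. A match was present in 1 of the 8 members, against 25.2% of the 13847 tested genes with such a UTR. The Enpp1 UTR is 3892 bases long, and the median length over those genes is 1188 bases. For the other 7 members these letters are not in the UTR examined. The mature 5p arm, miR-140-5p, is named only.

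The promoters of Col10a1 and Enpp1 are shown because their RNAs differed between the lines in opposite directions. Each is a window of 300 bases around an annotated start (RefSeq, GRCm38.p6), Col10a1 at chr10:34389731-34390030 on the plus strand and Enpp1 at chr10:24712110-24712409 on the minus strand. Capitals mark the 6-letter motifs searched for on both strands, the TATA box, spelled TATAAA or in complement TTTATA, and the RUNX core, spelled TGTGGT or in complement ACCACA.
Col10a1 promoter: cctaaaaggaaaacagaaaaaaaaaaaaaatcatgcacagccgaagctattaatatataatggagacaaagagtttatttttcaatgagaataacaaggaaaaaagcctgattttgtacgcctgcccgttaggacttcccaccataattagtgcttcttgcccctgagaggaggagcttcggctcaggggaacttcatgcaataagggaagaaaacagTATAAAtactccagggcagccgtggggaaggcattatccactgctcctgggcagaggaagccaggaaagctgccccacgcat
Enpp1 promoter: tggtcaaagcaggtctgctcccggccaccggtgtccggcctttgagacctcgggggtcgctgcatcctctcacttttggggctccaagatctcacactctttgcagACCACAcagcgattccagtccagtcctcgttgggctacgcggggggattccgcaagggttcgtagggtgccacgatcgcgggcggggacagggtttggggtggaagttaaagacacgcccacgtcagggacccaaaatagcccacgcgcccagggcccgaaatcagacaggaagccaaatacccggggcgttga
The Col10a1 window holds a TATA box 32 bases before the start and is 44.3% G and C. The Enpp1 window holds no TATA box, has 1 RUNX core and is 61.7% G and C. Of 32851 promoters in the table, 13.6% hold the TATA letters and 16.8% the RUNX letters. Promoters were found for 6 of the 8 members, Panx3 and Mgp being named only.

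Per gene length, the levels of the 8 genes covered a wide range. Mgp was among the 5 most abundant transcripts of every library, at 3603 to 11221 FPKM (fragments per kilobase of transcript, scaled to sequencing depth). Spp1, which encodes osteopontin, stood at 1293 to 2221 FPKM and Col10a1 at 456 to 1632 FPKM. Enpp1 was lower, at 49.1 to 76.8 FPKM. The other 4 were lower still, with Phospho1 at 2.22 to 7.9 FPKM, Alpl at 1.29 to 5.65, Panx3 at 0.77 to 1.66 and Ibsp at 0.1 to 2.78. Among the 18501 genes Phospho1 ranked 6768 to 9531, Alpl 7653 to 10614, Panx3 10471 to 11519 and Ibsp 9479 to 13826. The marker of hypertrophy and the inhibitors of mineral were thus far above the phosphatases in these plated cells. The FPKM level of Enpp1, which makes pyrophosphate, was 33.2 and 34.3 times that of Alpl, which removes it, in CT mutants and 29.6 and 24.7 times in CT wild types. It was 47.2 and 13.6 times that of Alpl in CG mutants and 17 and 24 times in CG wild types.

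**Figure D1:**
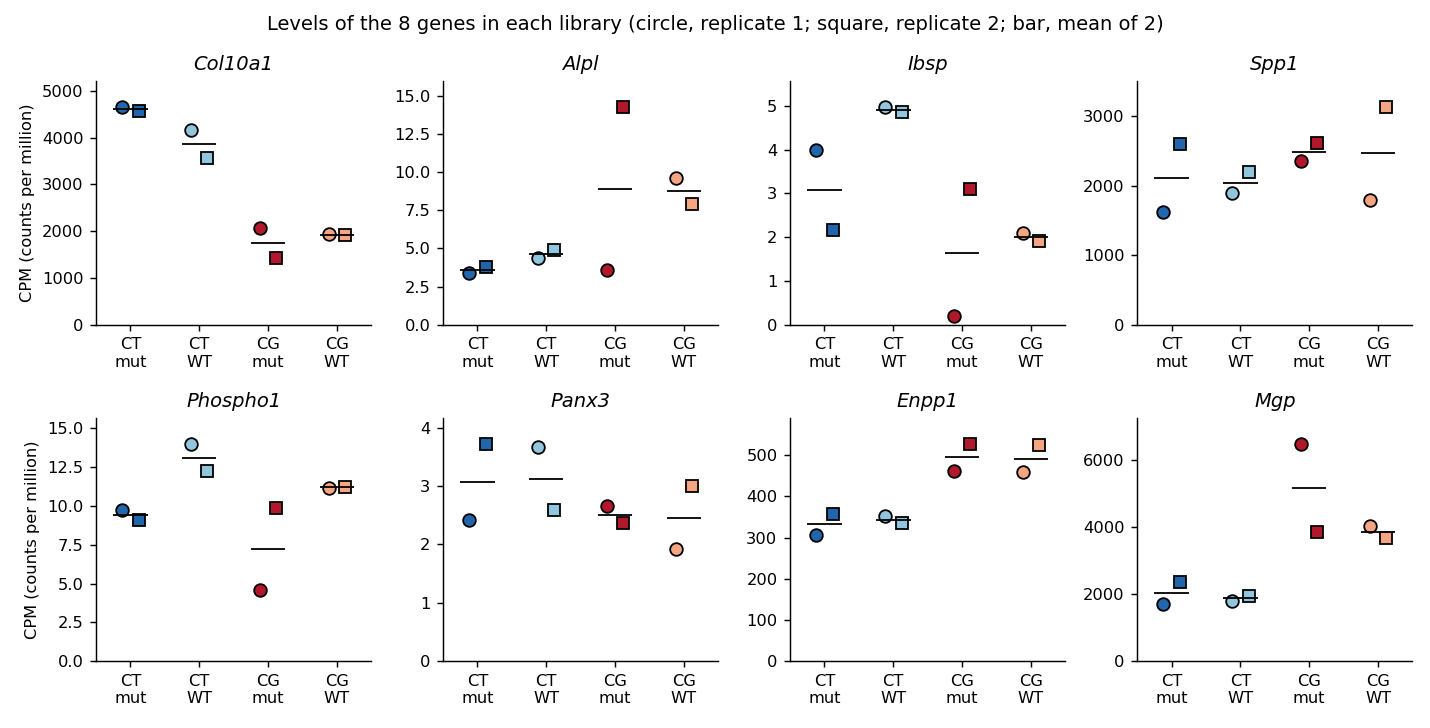
Level of each of the 8 genes in CPM (counts scaled to library size) on a linear axis from 0, in every library of the 4 groups; circles are replicate 1, squares replicate 2 and bars the mean of 2. The CT libraries lie above the CG libraries for Col10a1 (at least 3571 against at most 2075 CPM) and below them for Enpp1 and Mgp, and CG mutant replicate 1 is the lowest library for Ibsp and Phospho1.

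The libraries as a whole frame these values. Totals ran from 26536868 to 28678641 counts. The lines separated along a first principal component that held 64.5% of the variance, and CG mutant replicate 1 lay apart along a second that held 12.2%. Chondrocyte markers were abundant in all 8 libraries: Col2a1, the main cartilage collagen, ran from 24140 to 50163 CPM. Defining markers of bone cells were low, with Bglap, which encodes osteocalcin and has near-identical copies that can share its reads, at 0.46 to 4.76 CPM and Sost, an osteocyte gene, at 0 to 0.2 CPM. In RNA of a mixed cell preparation, fewer cells of a type and less RNA per cell cannot be told apart.

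None of the 8 genes passed the threshold in a mutant comparison, which was an adjusted p of 0.05 in edgeR's quasi-likelihood F test with Benjamini-Hochberg adjustment over all 14359 genes. In CT mutants against CT wild types 0 of 8 passed, and 0.00696% of all genes did. In CG mutants against CG wild types 0 of 8 passed, again against 0.00696% of all genes. For the mean of both mutant effects 0 of 8 and 0% of all genes passed, and for the CG effect minus the CT effect 0 of 8 and 0.0209% of all genes. At an unadjusted p under 0.05 there were 0 members in CT (5.11% of all genes), 0 in CG (11.4%), 1 for the mean effect (11.5%) and 0 for the difference (4.78%). DESeq2 called 0 members in CT, CG and the mean, where it called 0.157%, 1.88% and 1.71% of the genes it adjusted.

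The 1 member that reached an unadjusted p under 0.05 for the mean effect was Phospho1. Its level was 9.71 and 9.07 CPM in CT mutants, compared with 14 and 12.2 CPM in CT wild types. It was 4.61 and 9.85 CPM in CG mutants, against 11.2 CPM in both CG wild types. In both lines every mutant library was below every wild-type library, the lowest being CG mutant replicate 1. The log2 fold change was -0.48 ± 0.29 in CT (SE, adjusted p = 0.958 by edgeR), -0.63 ± 0.30 in CG (adjusted p = 0.472) and -0.55 ± 0.21 for the mean effect (adjusted p = 0.385). These values did not pass. Mutant and wild-type libraries did not overlap for 4 of the 8 members in CT (Col10a1, Alpl, Ibsp and Phospho1), where this held for 33.6% of all genes, and for 1 in CG (Phospho1), where it held for 45.6%.

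Phospho1 lies across from Abi3 on the opposite strand, and the deposited estimated counts of both carry decimals. Their sum was whole in 7 of 8 libraries and 474.76 in CT wild type replicate 2. The sum, a choice made after seeing the data, gave a log2 fold change of -0.42 ± 0.30 in CT (adjusted p = 0.971 by edgeR) and -0.64 ± 0.30 in CG (adjusted p = 0.477). Phospho1 also overlaps Zfp652 on its own strand, and Col10a1 overlaps Nt5dc1 on the opposite strand, with 414 to 655 counts per library for Nt5dc1 against 37234 or more for Col10a1. The sources used here do not say whether the counting used strand, so the split between these neighbours is uncertain.

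Alpl, the phosphatase that removes pyrophosphate, was 3.4 and 3.79 CPM in CT mutants, compared with 4.37 and 4.93 CPM in CT wild types (log2 fold change -0.37 ± 0.53, adjusted p = 0.992 by edgeR). In CG mutants it was 3.57 and 14.3 CPM, against 9.63 and 7.9 CPM in CG wild types (0.03 ± 0.50, adjusted p = 0.989). The 2 CG mutant libraries lay on either side of their wild types. Ibsp, which encodes bone sialoprotein, was counted 122 and 64 times in CT mutants, against 141 and 143 times in CT wild types. It was counted 5 and 81 times in CG mutants, against 58 and 48 times in CG wild types. Its log2 fold change was -0.67 ± 0.74 in CT (adjusted p = 0.978 by edgeR) and -0.27 ± 0.81 in CG (adjusted p = 0.925). Again the CG mutant libraries stood below and above both wild types, and their log2 difference of 3.50 was larger than that of 99.9% of tested genes.

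CG mutant replicate 1 was the lower of the 2 CG mutant libraries for Alpl, Ibsp and Phospho1, and their calls turned on which of the 2 was kept. Without CG mutant replicate 2, which leaves replicate 1 alone and assumes that it varies like the other groups, 3 of 8 members fell in CG mutants, where 3.55% of all genes were called. They were Ibsp (log2 fold change -3.24, adjusted p = 0.028 by edgeR), Alpl (-1.29, adjusted p = 0.0311) and Phospho1 (-1.27, adjusted p = 0.0164). The same 3 were then also called for the mean effect, against 2.17% of all genes. Without CG mutant replicate 1, the log2 fold changes were 0.62 for Ibsp, 0.70 for Alpl and -0.18 for Phospho1, and none passed. Markers of fibroblasts moved with them in that library: Col3a1 was 39.1 and 184 CPM in CG mutants, against 181 and 154 CPM in CG wild types, and Postn, which encodes periostin, was 27 and 119 CPM, against 119 and 110 CPM. Over the 8 fibroblast markers the summed level ran from 2612 to 3583 CPM in CG mutants and from 3656 to 3722 CPM in CG wild types, and none was at 0. All 8 fibroblast markers were below both wild types in CG mutant replicate 1. Markers of several other cell types were also mostly below both CG wild types in that library. This held for 7 of the 9 osteoblast and osteocyte, 4 of 4 endothelial and 8 of 10 macrophage and leukocyte markers. It also held for 4 of 6 erythroid and 6 of 6 skeletal muscle markers. Of 4 smooth muscle markers 3 were below and 1 above both. Of 8 osteoclast markers only 4 were below both, with 1 above both and 3 between or equal to them. Among the bone cell genes Bglap was 0.46 and 1.45 CPM in CG mutants, against 1.45 and 1.96 CPM in CG wild types. Sp7, of the same list, went the other way, at 5.73 and 7.14 CPM in CG mutants, against 2.86 and 4.71 CPM in CG wild types. The sum of that list was 11 and 16.7 CPM in CG mutants, against 11.5 and 13.2 CPM in CG wild types. The macrophage sum was 332 and 467 CPM in CG mutants, against 564 and 480 CPM in CG wild types. Of 15 chondrocyte markers, 11 were above both wild types in that library, Matn1 was below both, and 3, among them Hapln1 and Comp, were between them. The chondrocyte sum, most of it Col2a1, was 60193 and 35219 CPM in CG mutants, against 37359 and 36416 CPM in CG wild types. The part of these cells in the values of Alpl, Ibsp and Phospho1 was not tested.

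**Figure D2:**
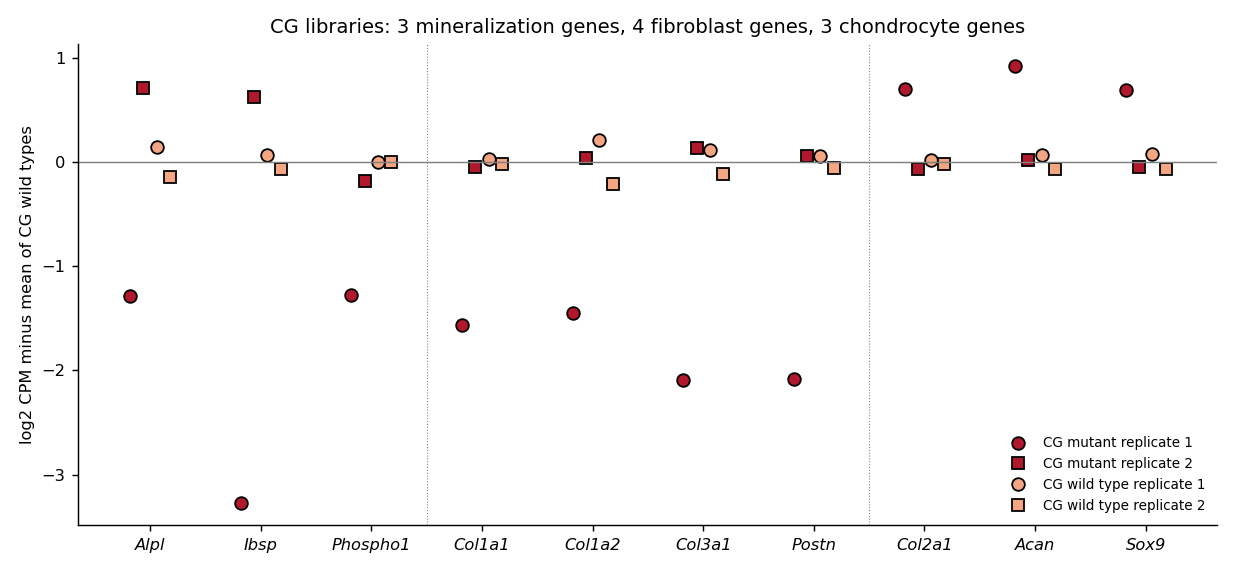
log2 CPM of 10 genes, of which the 7 that are not members were chosen after their values were seen, in the 4 CG libraries, as the difference from the mean of the 2 CG wild types; dark red marks CG mutants, light red CG wild types, circles replicate 1 and squares replicate 2. CG mutant replicate 1 lies below the other 3 libraries for Alpl, Ibsp, Phospho1 and the 4 fibroblast genes, and above them for Col2a1, Acan and Sox9.

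None of the 4 abundant members passed in either line. Col10a1, which encodes the collagen of hypertrophic chondrocytes, was 4651 and 4569 CPM in CT mutants, compared with 4158 and 3571 CPM in CT wild types (log2 fold change 0.25 ± 0.18, adjusted p = 0.973 by edgeR). In CG mutants it was 2075 and 1421 CPM, against 1929 and 1913 CPM in CG wild types (-0.14 ± 0.18, adjusted p = 0.801). The CT mutants lay above their wild types and the CG libraries overlapped, and the difference between the 2 effects was -0.39 ± 0.26 (adjusted p = 0.967), which did not pass. The 95% interval of the fold change was 0.89 to 1.60 in CT and 0.68 to 1.22 in CG, so a doubling lies outside both intervals. In the authors' deposited table Col10a1 has a q-value of 0.999 in CT mutants over controls and of 1 in CG mutants over controls.

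Enpp1 was 307 and 357 CPM in CT mutants, compared with 352 and 335 CPM in CT wild types. It was 462 and 527 CPM in CG mutants, against 459 and 524 CPM in CG wild types. The libraries overlapped in both lines, and the log2 fold changes were -0.05 ± 0.12 in CT (adjusted p = 0.998 by edgeR) and 0.01 ± 0.12 in CG (adjusted p = 0.983). Enpp1, which holds the site shown above, had the narrowest intervals of the 8 genes, 0.80 to 1.17 as a fold change in CT and 0.83 to 1.22 in CG.

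Mgp, the calcification inhibitor, was 1712 and 2368 CPM in CT mutants, compared with 1794 and 1952 CPM in CT wild types, with a log2 fold change of 0.12 ± 0.25 (adjusted p = 0.998 by edgeR). In CG mutants it was 6475 and 3851 CPM, against 4039 and 3673 CPM in CG wild types (0.42 ± 0.25, adjusted p = 0.56). CG mutant replicate 1 alone stood above the other CG libraries. Spp1 was 1616 and 2598 CPM in CT mutants, compared with 1901 and 2193 CPM in CT wild types, and 2351 and 2622 CPM in CG mutants, against 1801 and 3133 CPM in CG wild types. The mutant and wild-type libraries overlapped in both lines (log2 fold changes 0.04 ± 0.29 and 0.01 ± 0.29). Panx3 was counted 74 and 110 times in CT mutants, against 104 and 76 times in CT wild types, and 64 and 62 times in CG mutants, against 53 and 75 times in CG wild types. At these counts its 95% interval for the fold change, 0.58 to 1.65 in CT and 0.60 to 1.75 in CG, leaves room for changes of more than 1.5 times either way.

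Of the 8 genes 3 did differ between the lines, whichever genotype was compared. Col10a1 was higher in CT than in CG cells, and Enpp1 and Mgp were lower. The direction of Col10a1 was not that of all hypertrophy genes, as Mmp13 and Ihh, described below, were lower in CT. In CT wild types over CG wild types 1 member was higher and 2 were lower, where 33.7% of all genes were called (17% higher and 16.8% lower). In CT mutants over CG mutants 1 was higher and 2 were lower, where 36.1% of all genes were called (17.9% higher and 18.2% lower). A count of 3 of 8 is close to the share of all genes. Line cannot be told apart from anything else that differed between the mice or preparations of the CT and CG sets.

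Col10a1 was higher by a log2 fold change of 1.01 ± 0.18 in CT wild types over CG wild types (adjusted p = 0.00559 by edgeR) and of 1.40 ± 0.19 in CT mutants over CG mutants (adjusted p = 0.00128). It was called under all 15 alternatives in both comparisons. The authors' deposited table gives log2 ratios of 1.01 (q = 5.23e-14) between the control groups and 1.41 (q = 5.4e-11) between the mutant groups. Mgp was lower, with a log2 fold change of -1.04 ± 0.25 in CT wild types over CG wild types (adjusted p = 0.0165 by edgeR) and of -1.34 ± 0.25 in CT mutants over CG mutants (adjusted p = 0.00561). Enpp1 was lower too, with -0.52 ± 0.12 in wild types (adjusted p = 0.0145) and -0.58 ± 0.12 in mutants (adjusted p = 0.00852). For each of these genes no CT library overlapped a CG library of the same genotype, as held for 71.1% of all genes between wild types and 71.1% between mutants. Between the wild types Enpp1 lost the call without CG wild type replicate 2 (adjusted p = 0.103) or CT wild type replicate 2 (0.0727). Mgp lost it without either CG wild type library (0.0786 for replicate 1 and 0.0616 for replicate 2) and without either CT wild type library (0.0815 and 0.0644). Between the mutants Enpp1 lost it without CT mutant replicate 1 (0.0661).

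Alpl and Ibsp stood apart by line in the wild types but did not pass when all groups shared one estimate of spread. Alpl was 4.37 and 4.93 CPM in CT wild types, against 9.63 and 7.9 CPM in CG wild types (log2 fold change -0.91 ± 0.51, adjusted p = 0.204 by edgeR). Ibsp was 4.97 and 4.86 CPM in CT wild types, against 2.1 and 1.92 CPM in CG wild types (1.29 ± 0.77, adjusted p = 0.227). The wild-type libraries did not overlap for either gene. Fitted on the 4 wild-type libraries alone, where 34.9% of all genes were called, Alpl (adjusted p = 0.0108) and Ibsp (adjusted p = 0.00545) passed with log2 fold changes of -0.92 and 1.29. That fit leaves out the CG mutants, whose 2 libraries had log2 differences of 1.98 for Alpl and 3.50 for Ibsp. Leaving either CG mutant library out of the shared fit takes out the same spread, so it gives no separate support. The authors' deposited table gives Ibsp a log2 ratio of 1.29 (q = 0.0035) between the control groups and 0.91 (q = 0.62) between the mutant groups. Between the mutants Alpl (-1.32 ± 0.52, adjusted p = 0.0834 by edgeR) and Ibsp (0.88 ± 0.79, adjusted p = 0.41) did not pass. Without CG mutant replicate 1 Alpl passed there (-1.99, adjusted p = 0.000718), and without CG mutant replicate 2 Ibsp (3.85, adjusted p = 0.00241) and Phospho1 (1.02, adjusted p = 0.00583) did. Spp1, Phospho1 and Panx3 had log2 fold changes of -0.27, 0.23 and 0.35 between wild types and of -0.24, 0.37 and 0.29 between mutants, none of which passed.

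**Figure D3:**
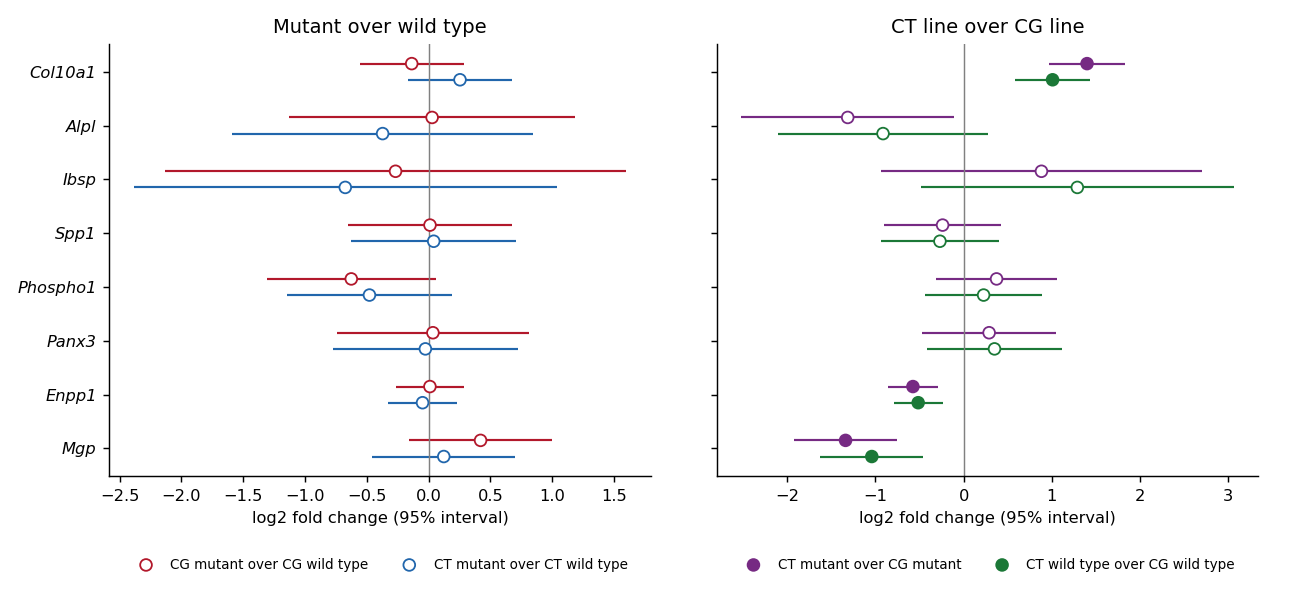
log2 fold change of each gene with its 95% interval from edgeR, mutant over wild type in each line on the left and CT over CG in each genotype on the right; filled points have an adjusted p under 0.05. No point is filled on the left, and on the right the filled points are Col10a1 to the right of 0 and Enpp1 and Mgp to its left, in both genotypes.

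Markers of other cell types also differed between the lines. Over 6 erythroid markers, the globins and Alas2, the summed level was 968 to 1321 CPM in CT mutants and 1482 to 2532 CPM in CT wild types, against 2.95 to 11.6 CPM in CG mutants and 10.8 to 16.8 CPM in CG wild types, and Hbb-b1 was at 0 in both CG wild types. Between wild types 4 of the 6 were called, all higher in CT. Hbb-bs (log2 fold change -1.18, adjusted p = 0.522 by edgeR) and Hbb-bt (-0.85, adjusted p = 0.691) were not. Between mutants all 6 were called higher in CT. Endothelial markers (4 genes, none at 0) summed to 55.1 to 78.8 CPM in CT mutants and 46.8 to 88 CPM in CT wild types, against 9.52 to 29.8 CPM in CG mutants and 21.7 to 29 CPM in CG wild types. Smooth muscle markers (4 genes) ran the other way, at 110 to 127 CPM in CT mutants and 88.3 to 102 CPM in CT wild types, against 239 to 257 CPM in CG mutants and 284 to 298 CPM in CG wild types. Of these 3 were called lower in CT between wild types and 2 between mutants. Myh11 was called in neither (log2 fold change -0.24, adjusted p = 0.72 by edgeR, and 0.28, adjusted p = 0.672). The chondrocyte sum was 45775 to 46370 CPM in CT mutants and 55800 to 67155 CPM in CT wild types, against 35219 to 60193 CPM in CG mutants and 36416 to 37359 CPM in CG wild types. Of the 15 chondrocyte markers 7 were called higher and 2 lower in CT between wild types, where 33.7% of all genes were called. Between mutants 4 were called higher and 2 lower, where 36.1% of all genes were called. The 9 osteoblast and osteocyte markers summed to 15.7 to 16.1 CPM in CT mutants and 15.1 to 18.8 CPM in CT wild types, against 11 to 16.7 CPM in CG mutants and 11.5 to 13.2 CPM in CG wild types. Macrophage and leukocyte markers (10 genes) summed to 337 to 366 CPM in CT mutants and 316 to 351 CPM in CT wild types, against 332 to 467 CPM in CG mutants and 480 to 564 CPM in CG wild types, most of it Cd14, with the complement genes C1qa, C1qb and C1qc at or near 0 in every group. Within that list Ptprc (log2 fold change 2.37, adjusted p = 0.00806 by edgeR), Itgam (2.04, adjusted p = 0.0133) and Lyz2 (1.61, adjusted p = 0.0285) were higher and Cd14 was lower (-0.98, adjusted p = 0.00323) in CT wild types over CG wild types. Fibroblast markers (8 genes, none at 0) summed to 2749 to 3449 CPM in CT mutants and 3251 to 3721 CPM in CT wild types, against 2612 to 3583 CPM in CG mutants and 3656 to 3722 CPM in CG wild types. Among them Col1a1 (1.89, adjusted p = 0.0132 by edgeR) and Col1a2 (1.54, adjusted p = 0.0216) were higher and Dcn was lower (-2.23, adjusted p = 0.000277) between wild types. Skeletal muscle markers (6 genes) summed to 4.84 to 7.13 CPM in CT mutants and 5.78 to 6.03 CPM in CT wild types, against 6.52 to 26.2 CPM in CG mutants and 16.3 to 17.4 CPM in CG wild types, with Myh8 at 0 in 3 libraries and Ckm in 1. Osteoclast markers (8 genes) summed to 47.7 to 51 CPM in CT mutants and 52 to 95.4 CPM in CT wild types, against 133 to 178 CPM in CG mutants and 127 to 175 CPM in CG wild types, and Calcr, a defining osteoclast gene, was at 0 in both CT mutants and in 1 library each of CT wild types and CG mutants. Of the 4 that could be tested, only Ctsk was called between wild types (log2 fold change -1.02, adjusted p = 0.00978 by edgeR). Between mutants 2 were called, Ctsk (-1.75, adjusted p = 0.00105) and Mmp9 (-1.68, adjusted p = 0.0234). The part of these cells in the line differences of Col10a1, Enpp1 and Mgp was not tested.

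Other genes of the hypertrophic programme went in both directions between the lines. Mmp13, the collagenase of late hypertrophic chondrocytes, was 157 and 248 CPM in CT mutants and 300 and 176 CPM in CT wild types, against 813 and 1565 CPM in CG mutants and 1713 and 2684 CPM in CG wild types. It fell in CT over CG, with a log2 fold change of -3.21 ± 0.43 in wild types (adjusted p = 0.00153 by edgeR) and of -2.55 ± 0.41 in mutants (adjusted p = 0.00287). Ihh, the hedgehog ligand of prehypertrophic cells, fell as well (-3.06 ± 0.44 in wild types, adjusted p = 0.00212 by edgeR), with -2.69 ± 0.51 in mutants (adjusted p = 0.00544), at no more than 2.03 CPM in any library. Pth1r, the receptor for parathyroid hormone-related protein, rose by 1.75 ± 0.21 (adjusted p = 0.00113) and 1.24 ± 0.21 (adjusted p = 0.00336). Of 16 tested genes of this list, 2 rose and 4 fell between wild types (median log2 fold change -0.07), and 1 rose and 3 fell between mutants (median -0.16). As 33.7% and 36.1% of all genes were called, counts of 6 and 4 in 16 are near or under the share of all genes. The median of all genes was 0.00 between wild types and -0.01 between mutants.

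Genes that handle phosphate and pyrophosphate were also called in both directions between the lines. Nt5e, which encodes the ectonucleotidase that makes adenosine from AMP, was 655 and 640 CPM in CT mutants and 551 and 514 CPM in CT wild types, against 2029 and 1868 CPM in CG mutants and 1622 and 1510 CPM in CG wild types. Its log2 fold change was -1.56 ± 0.11 between wild types (adjusted p = 0.000164 by edgeR) and -1.59 ± 0.11 between mutants (adjusted p = 0.000175). Smpd3, a sphingomyelinase needed for skeletal mineralization in mice, rose by 1.74 ± 0.29 (adjusted p = 0.00387) and 2.00 ± 0.30 (adjusted p = 0.00203). The phosphate transporter gene Slc20a2 rose by 0.49 ± 0.11 (adjusted p = 0.0101) between wild types, and Ank, which carries pyrophosphate out of cells, fell (-0.68 ± 0.12, adjusted p = 0.00443) between mutants. Of 8 tested genes 2 rose and 1 fell between wild types (median 0.14), and 2 rose and 4 fell between mutants (median -0.19). The 3 of 8 between wild types are close to the 33.7% of all genes called there, and the 6 of 8 between mutants stand beside 36.1%.

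**Figure D4:**
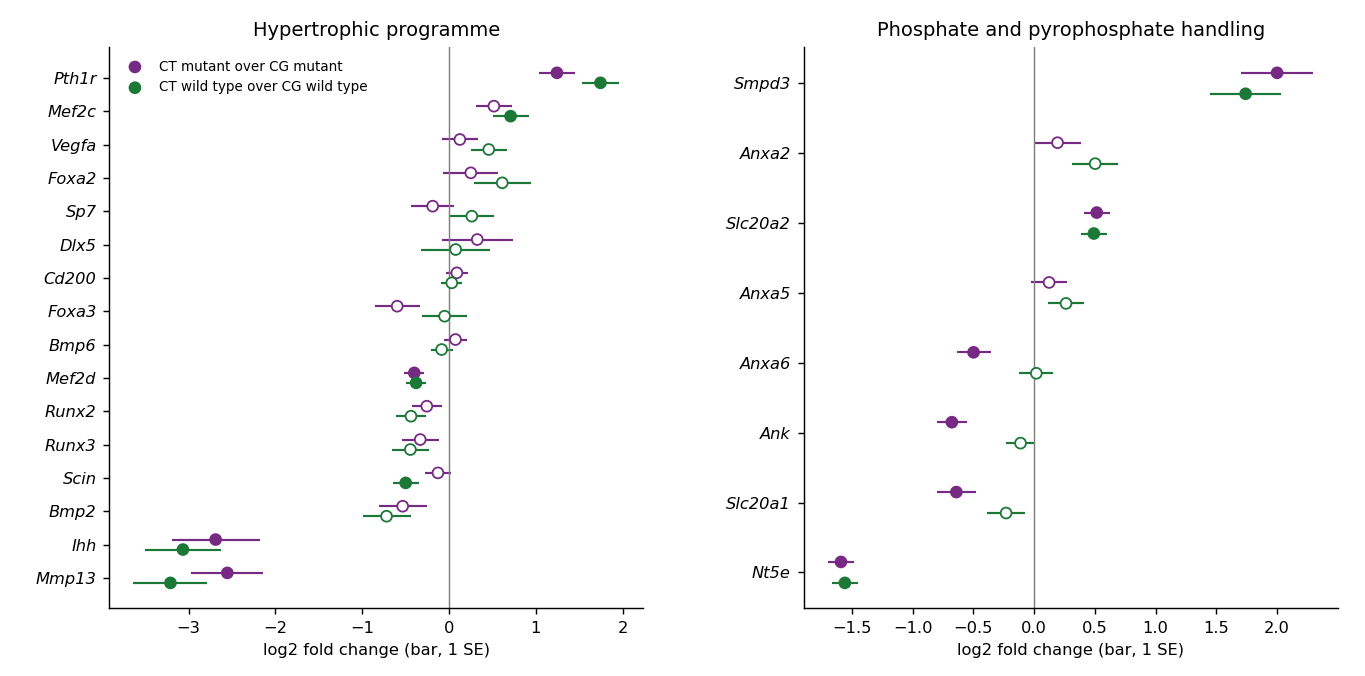
log2 fold change of CT over CG, with 1 SE from edgeR, for the tested genes of the hypertrophic programme (left) and of phosphate and pyrophosphate handling (right), in mutants and in wild types; filled points have an adjusted p under 0.05. Pth1r and Smpd3 lie farthest to the right, and Mmp13, Ihh and Nt5e farthest to the left, in both genotypes.

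Matrix Gla protein becomes active when its glutamates are carboxylated in a vitamin K cycle. Ggcx, the carboxylase, fell in CT over CG as Mgp did, with a log2 fold change of -0.54 ± 0.11 in wild types (adjusted p = 0.00827 by edgeR) and -0.82 ± 0.11 in mutants (adjusted p = 0.00126). Vkorc1, which regenerates vitamin K, rose by 0.72 ± 0.21 in wild types (adjusted p = 0.0334). Its paralog Vkorc1l1 rose by 0.39 ± 0.09 (adjusted p = 0.0113) and Gas6, a secreted Gla protein, by 0.72 ± 0.17 (adjusted p = 0.0118) in mutants. Of the 6 genes of this list 1 rose and 1 fell between wild types (median 0.18), and 2 rose and 2 fell between mutants (median 0.24), where 33.7% and 36.1% of all genes were called, so the count between wild types is at the share of all genes.

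Among 12 tested bone matrix genes, 4 rose and 1 fell in CT wild types over CG wild types (median 1.14), and 5 rose and 2 fell in CT mutants over CG mutants (median 1.32). The shares of all genes called were 33.7% (17% higher and 16.8% lower) and 36.1% (17.9% higher and 18.2% lower). Dmp1, an acidic phosphoprotein of osteocytes, rose by 3.32 ± 0.52 (adjusted p = 0.00308 by edgeR) and 2.57 ± 0.51 (adjusted p = 0.00663), at no more than 2.92 CPM in any library. Fam20c, the kinase that phosphorylates osteopontin and its relatives, fell, with -1.53 ± 0.14 (adjusted p = 0.000414) and -1.18 ± 0.14 (adjusted p = 0.000899). Sparc, which encodes osteonectin, rose by 1.23 ± 0.21 in wild types (adjusted p = 0.00454), and Col1a1, the chain of collagen I, by 2.27 ± 0.44 in mutants (adjusted p = 0.00596).

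None of the genes of these 4 lists passed in either mutant comparison. The smallest p-values of the hypertrophic programme belonged to Bmp6 and Vegfa in CT and to Bmp6 and Ihh in CG. Ihh had a log2 fold change of -1.19 ± 0.38 in CG (adjusted p = 0.321 by edgeR). Those of phosphate handling belonged to Nt5e and Ank in CT and to Anxa6 and Nt5e in CG, where Anxa6, an annexin of matrix vesicles, had 0.75 ± 0.14 (adjusted p = 0.18). Among the Gla genes they belonged to Ucma, a Gla protein of chondrocytes, and Gas6. Ucma had a log2 fold change of 0.82 ± 0.29 in CT (adjusted p = 0.958 by edgeR) and 1.44 ± 0.29 in CG (adjusted p = 0.191), and Gas6 of -0.25 ± 0.16 and -0.84 ± 0.17 (adjusted p = 0.958 and 0.182). Among bone matrix genes they belonged to Sparc and Omd in CT and to Fam20c and Phex in CG. Median log2 fold changes in CT and CG were -0.13 and -0.14 for the hypertrophic programme, 0.00 and 0.24 for phosphate handling, -0.12 and 0.03 for Gla genes and -0.30 and -0.50 for bone matrix, where the median of all genes was 0.00 in both.

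The genes whose levels ran closest to a member's across the 8 libraries were found by the root mean square difference of centred log2 CPM, among 11504 genes whose mean log2 CPM was 1 or more. For Mgp the nearest was Fry (0.04), followed by Msi2 (0.11) and Fgfr3 (0.13), the FGF receptor that restrains chondrocyte growth. For Col10a1 they were Ppargc1b (0.11), Mpzl2 (0.11) and Mov10 (0.13), and for Enpp1 Carf (0.05), Dhdds (0.06) and Pcdhga8 (0.07). Those distances are small beside the members' own spread of 0.64, 0.63 and 0.29. All 3 members were called between the lines, where 33.7% of all genes were called in wild types and 36.1% in mutants. No background distance was computed. Ibsp had a spread of 1.26, with only 5 counts in CG mutant replicate 1. Its nearest genes were Mpeg1 (0.42), a macrophage gene, Col3a1 (0.42), a fibroblast collagen, and Ccdc3 (0.42). For Alpl they were Slit3 (0.16), Ednra (0.23) and Abca1 (0.24), and for Phospho1 Lhfp (0.11), 6430548M08Rik (0.13) and Efnb2 (0.15). Spp1 was nearest to Smim8 (0.13) and Panx3 to Capn6 (0.16). No member was among the 3 nearest genes of another: the nearest member to Ibsp was Phospho1, 210th in order, and the nearest to Col10a1 was Panx3, 3119th.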

How the data were processed

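RNA-seq of 8 libraries in 4 labelled groups of 2 was used. Per the submitters' processing notes, reads were processed with HISAT2 2.0.4 on mm9; counter and annotation are not named there. The estimated counts and FPKM values were deposited by the authors per gene and library. Between 2282 and 2518 genes per library had decimals, and all counts were rounded. The authors' deposited comparison table gives log2 ratios and q-values and lists 2 of the 8 genes; its tool is not named.

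Counts were tested with edgeR 4.0.16 in R 4.3.3 (TMM, default low-count filter, 4 group means in 1 fit, 4 residual degrees of freedom, quasi-likelihood F test, Benjamini-Hochberg over 14359 genes, threshold 0.05). SE is the absolute log2 fold change over the root of F, and 95% intervals use it. CPM are TMM-scaled. Both libraries of each group differed beyond sampling noise and count as 2. The members and lists were chosen with earlier results of these data known. From each list the genes with the 3 smallest p-values among those past the threshold are named, or the 2 smallest where none passed; other marker genes were chosen after their values were seen. The fits were tested on simulated data. Alternatives were size factors, no filter, DESeq2 1.42.0, only the groups compared, a replicate block, a term for sex (Ddx3y of 1000 counts or more), limma 3.58.1 on log2(FPKM + 1), and each library left out. By that rule both CG mutants were male (2231 and 2360 counts). CG wild type replicate 2 was male (2511 counts) and replicate 1 was not (2 counts), so genotype is partly tied to sex in CG. Sequences are from RefSeq GRCm38.p6 and GENCODE M21, builds other than that of the files.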

Additional observations from a re-analysis of the deposited data

Results flagged for a closer look

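The level of Col10a1 per level of Col2a1, a ratio of FPKM values chosen with the results known, moved in opposite directions in the 2 lines. It was 23.4% and 23.6% in CT mutants, against 13.2% and 14% in CT wild types, whereas it was 8.05% and 9.38% in CG mutants, against 11.9% and 12.2% in CG wild types. Every CT mutant library was above, and every CG mutant library below, both of its wild types. For the CPM of single genes, mutant and wild-type libraries did not overlap for 33.6% of all genes in CT and 45.6% in CG. No such share was computed for ratios or for opposite directions in the lines. On the log2 scale the mutant effect was 0.79 in CT and -0.47 in CG, and the CG effect minus the CT effect was -1.26 (exact permutation of labels within each line, 36 arrangements, two-sided p = 0.0556, the smallest this design can give). Because the libraries of both lines were already separated in opposite directions, the permutation could return only that value, and no conclusion is drawn from it. Col2a1 itself stood at 6968 and 6906 FPKM in CT mutants, against 10637 and 8928 FPKM in CT wild types, and at 7459 and 4855 FPKM in CG mutants, against 5180 and 4866 FPKM in CG wild types. The difference of the Col10a1 effects alone did not pass in the fit across all genes.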

How the results depend on the processing

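Col10a1 between the lines was called under all 15 alternatives in both genotypes, and Mgp between mutants likewise. No member was called in the CT comparison or for the difference of effects under any alternative. Counts of genes called in CG, CT, the mean effect and the difference (1, 1, 0 and 3) became 13, 2, 1 and 5 without the filter and 213, 20, 206 and 38 in DESeq2. Only the 2 groups compared gave 3 in CT, the sex term 2 in CG and 1 for the mean, and limma on FPKM 4 in CG and 3 in CT. Replicate numbers do not pair the libraries by any label (correlation of same-numbered deviations 0.248 in CT and -0.0892 in CG). In CT, replicate 1 was male by Ddx3y and replicate 2 was not, in both genotypes. Replicate block and sex term thus split the CT libraries in the same way. The replicate block gave 4 in CT, 5 for the mean and 6 for the difference, and changed no member's call. Alpl in CG reversed under the block (log2 fold change -0.236). Panx3 reversed under the sex term (-0.0362 in CG, 0.00059 in CT). With limma on FPKM, Alpl (-0.202), Panx3 (-0.00023) and Enpp1 (-0.0389) reversed in CG and Panx3 (0.0030) in CT. Members called between wild types numbered 5 in the fit of those groups alone and 1 with limma on FPKM, where Enpp1 and Mgp had adjusted p = 0.0589; between mutants Enpp1 had 0.068 with limma, and Alpl passed in DESeq2 (adjusted p = 0.0183). The cause was not tested. Limma on FPKM shifted the median of all genes between mutants by 0.15 and called 3248 higher and 1567 lower between wild types, against 2436 and 2407, and 4040 and 1504 between mutants, against 2564 and 2620. Leaving out each library in turn gave 0 to 3 members in CG and for the mean, 1 to 5 between wild types and 2 to 5 between mutants. It gave 1 to 522 genes in CG, 0 to 4 in CT, 0 to 319 for the mean, 1 to 97 for the difference, 2137 to 5324 between wild types and 2908 to 5210 between mutants. The sign of members that were not called also changed when single libraries were left out. In CG the log2 fold changes ran from -0.436 to 0.116 for Col10a1, -1.29 to 0.701 for Alpl, -3.24 to 0.619 for Ibsp, -0.335 to 0.47 for Spp1, -0.255 to 0.392 for Panx3, -0.0838 to 0.115 for Enpp1 and -0.00282 to 0.752 for Mgp. In CT they ran from -0.341 to 0.344 for Spp1, -0.368 to 0.253 for Panx3, -0.162 to 0.057 for Enpp1 and -0.129 to 0.339 for Mgp. For the mean effect Alpl ran from -0.834 to 0.162. Between wild types Spp1 ran from -0.617 to 0.189, and between mutants Spp1 from -0.622 to 0.0635, Ibsp from -0.00817 to 3.85, Phospho1 from -0.0715 to 1.02 and Panx3 from -0.0543 to 0.567. Ibsp had as few as 5 counts in a library, and only 2 libraries a group stand behind every value.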
